A study of Mus musculus with 8 samples.

Results

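Ion channel genes were followed in the cortex of mice with and without the transcriptional repressors SHARP1 and SHARP2, at 2 times of day. The members were all genes whose symbol marks a subunit of a potassium (Kcn), calcium (Cacn), sodium (Scn), hyperpolarization-activated cation (Hcn) or CLC chloride (Clcn) channel, taken from probe sets annotated with a single symbol. This gave 68 genes on 88 probe sets, out of 8251 genes and 12422 probe sets in all: 42 potassium, 12 calcium, 6 sodium, 2 HCN and 6 CLC genes. Each gene was represented by its probe set with the highest mean log2 signal. The symbols reach beyond voltage-gated channels, since inward rectifier, calcium-activated and two-pore potassium channels, auxiliary subunits and intracellular chloride/proton exchangers carry the same prefixes. The mean signal of 43 of the 68 genes lay above the filter applied to all probe sets (25 potassium, 8 calcium, 2 sodium, 2 HCN, 6 CLC), and 25 genes lay below it and were not tested.

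Total RNA was taken from cortex slices of 8 individual mice of the C57/bl6 strain, 4 months old and kept group-housed in a light-dark cycle, and each mouse was measured on 1 Affymetrix array. The 4 groups were S1/2-/- mice, which carry null alleles of both *Sharp1* (*Bhlhe41*) and *Sharp2* (*Bhlhe40*), at ZT16 and at ZT4, and wild-type (WT) mice at ZT16 and at ZT4, with 2 mice in each. ZT is the time in hours after lights on, so that ZT4 falls in the rest phase and ZT16 in the active phase of a mouse. Both alleles are lost throughout the body, and the cortex is a mixture of cell types in which fewer cells of a type and less RNA per cell cannot be told apart.

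Voltage-gated channels open when the membrane potential changes: sodium and calcium channels carry inward current that starts and shapes the action potential and transmitter release, and potassium channels end it and set how fast a neuron can fire again. Pore-forming alpha subunits are joined by auxiliary subunits that alter gating or bring the pore to the membrane. Channel genes have been linked to sleep and to the daily change of cortical excitability in flies and mice, among them *Shaker*-type potassium channels, the BK channel *Kcnma1* and T-type calcium channels. SHARP proteins repress promoters by binding E-box sequences or by binding other transcription factors.

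The arrays were alike in scale, with median signals of 186 to 206. Replicates of a group had log2 signals that correlated at r = 0.955 to 0.965 across the probe sets above the filter. Markers of cortical neurons were present (8 of 10 were measured, 8 of these passed the filter). The probe set of *Bhlhe40* gave 1043 and 889 in S1/2-/- and 1189 and 1285 in WT mice at ZT16, and 913 and 834 in S1/2-/- and 1074 and 983 in WT mice at ZT4. The position of this probe set relative to the deleted part is unknown here, so it does not check the genotype, and *Bhlhe41* was not analysed here. Markers of tissue next to cortex differed between arrays. The summed signal of 4 measured striatal markers of 9 (*Penk*, *Tac1*, *Drd2* and *Rgs9*, of which *Rgs9* was below the filter) was 6874 to 11559 in S1/2-/- at ZT16, 8869 to 13421 in S1/2-/- at ZT4, 9900 to 14295 in WT at ZT16 and 3754 to 4308 in WT at ZT4. Most of each striatal sum was *Penk*. *Tac1* and *Drd2* were also lowest in WT at ZT4, and *Rgs9* was not, with 7.13 and 9.69 in WT at ZT16 and 4.55 and 21.7 in WT at ZT4. The 6 measured choroid plexus markers of 9 summed to 3098 to 3489 in WT at ZT16 and to at most 1970 in the other groups. Most of the WT sum at ZT16 was *Ttr*, the only one of the 6 above the filter. *Ttr* gave 102 and 150 in S1/2-/- and 2582 and 2412 in WT mice at ZT16. Below the filter, *Kl* and *Folr1* were also highest in WT at ZT16, and *Aqp1*, *Cldn2* and *F5* were not. The 7 measured oligodendrocyte markers of 8 summed to 25559 to 29152 in the 4 S1/2-/- mice and to 16627 to 22636 in the 4 WT mice. The part of these cell types in the values below was not tested unless stated.

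No channel gene passed the threshold of a fold change over 1.5 with an adjusted p under 0.05 in any of the 7 comparisons (limma, Benjamini-Hochberg over 7453 probe sets). For ZT16 against ZT4 this was 0 of 43 in S1/2-/- mice, where 0% of all tested probe sets were called, and 0 of 43 in WT mice, where 0.0134% were. For S1/2-/- against WT it was 0 of 43 at ZT16, with a background of 0.0134%, and 0 of 43 at ZT4, with a background of 0.0939%. The difference between the genotypes in the ZT16 over ZT4 change gave 0 of 43 (background 0%), the mean change over both genotypes 0 of 43 (0%), and the mean genotype difference over both times 0 of 43 (0.255%). With 2 mice a group, all differences below are described as values that did not pass this test.

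At an unadjusted p under 0.05, 3 to 5 channel genes passed in each comparison. In S1/2-/- mice 1 gene was higher at ZT16 than at ZT4 and 2 were lower, where 4.33% of all probe sets were higher and 2.98% lower. In WT mice 1 was higher and 3 were lower, against 3.93% and 3.68% of all probe sets. S1/2-/- against WT gave 3 higher and 0 lower at ZT16, against 5.73% and 5.21%, and 4 higher and 1 lower at ZT4, against 4.04% and 3.25%. The change with time differed between the genotypes in the positive direction for 2 genes and in the negative direction for 2, against 2.74% and 2.95%. Over both genotypes 1 gene was higher and 4 were lower at ZT16, against 5.34% and 4.04%, and over both times 3 were higher and 1 was lower in S1/2-/-, against 6.44% and 5.94%. With 2 mice a group, signals without overlap were common. From ZT4 to ZT16 in S1/2-/- this held for 5 channel genes higher and 9 lower, against 1562 and 1520 of 7453 probe sets. In WT it held for 5 and 11, against 1336 and 1344. Between genotypes 13 were higher in S1/2-/- and 4 lower at ZT16, against 1567 and 1563. At ZT4 the counts were 8 and 5, against 1456 and 1484.

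The median log2 change of the 43 genes lay close to 0 in every comparison. From ZT4 to ZT16 it was -0.0050 in S1/2-/- mice, with 21 of 43 genes higher at ZT16, and -0.09 in WT mice, with 19 of 43 higher; over all probe sets 49.5% and 49.4% were higher. S1/2-/- against WT it was 0.15 at ZT16, with 28 of 43 genes higher against 50.8% of all probe sets, and 0.01 at ZT4, with 25 of 43 higher against 49.3%. Without mouse 2 of WT at ZT16 the median at ZT16 was 0.04, with 26 of 43 genes higher. By ion, the 25 potassium genes had a median of 0.18 at ZT16 for S1/2-/- against WT, the 8 calcium genes 0.04 and the 6 CLC genes 0.23. In the plot of all tested genes by mouse, 1 WT mouse at ZT16 holds many of the lowest values.

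**Figure D1:**
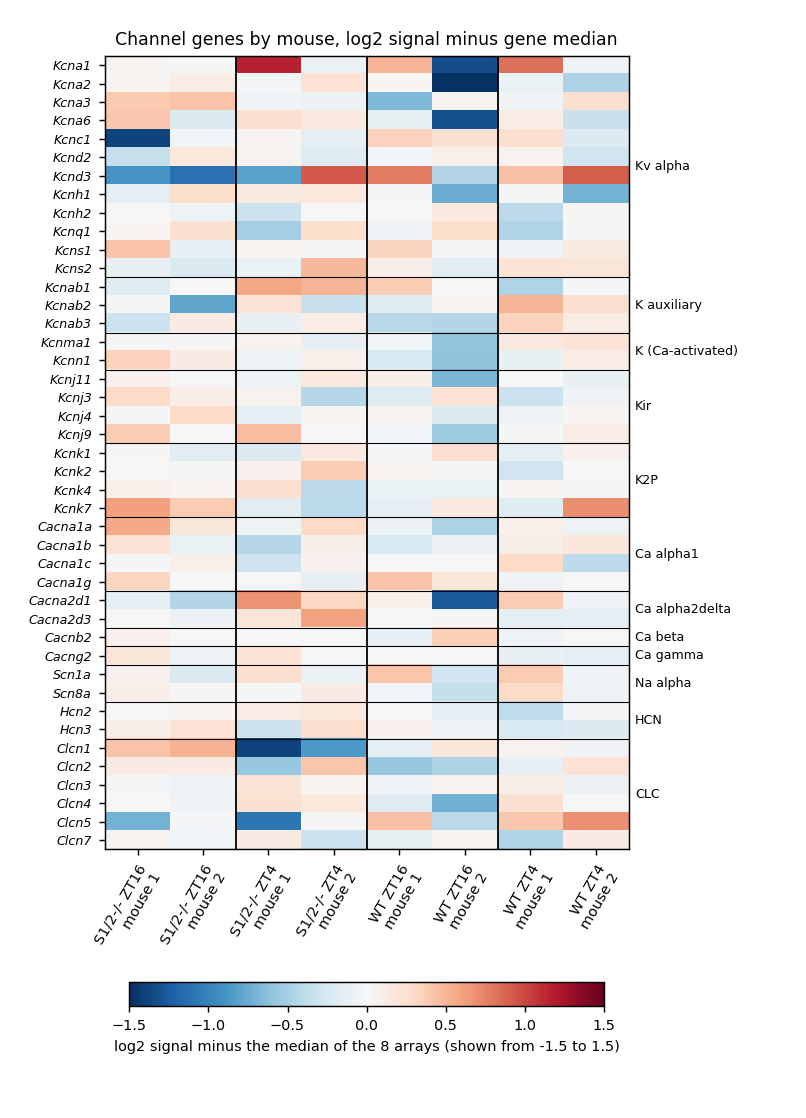
Log2 signal of the 43 tested channel genes (rows, grouped by subunit class) in each of the 8 mice (columns), minus the median of that gene over the 8 arrays. Blue cells lie below and red cells above the gene's median; mouse 2 of WT ZT16 has the lowest signal of all 8 arrays for 15 genes.

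That array, mouse 2 of WT at ZT16, had the lowest of the 8 signals for 15 of 43 channel genes (34.9%), while it was lowest for 19.5% of all tested probe sets. It also had the highest signal for 18.4% of all tested probe sets, but for only 3 channel genes (6.98%). The 15 genes were *Cacna1a*, *Cacna2d1*, *Clcn4*, *Kcna1*, *Kcna2*, *Kcna6*, *Kcnab3*, *Kcnh1*, *Kcnj4*, *Kcnj9*, *Kcnj11*, *Kcnma1*, *Kcnn1*, *Scn1a* and *Scn8a*. For *Kcna1* its signal was 0.425 times the next lowest, for *Kcna2* 0.492 times, for *Kcna6* 0.505 times and for *Cacna2d1* 0.565 times, whereas for *Kcnab3*, *Kcnh1*, *Scn1a* and *Kcnj4* the ratio was 0.944 or more. Outside the channel families, the kinase *Camk2a* (210 against 617 in mouse 1) and the chloride exporter *Slc12a5* (80 against 174) were also lowest there. So were the cortical neuron markers *Tbr1* (5667) and, by a small margin, *Neurod6* (313, against 315 in mouse 2 of WT at ZT4). The markers *Cux2* (150), *Gad1* (8447) and *Pvalb* (1956) were neither lowest nor highest on this array. By contrast, the synaptic protein gene *Snap25* (46756), the kinase *Camk2b* (6669) and the interneuron marker *Sst* (5391) were highest of the 8 arrays. The summed signal of the cortical neuron markers was highest there too (68890), but most of that sum was *Snap25*. The ratio of 3′ to 5′ signal, which climbs when RNA is degraded, was 2.01 for beta-actin on this array, inside the range of 1.76 to 2.30 of the other 7, and 0.961 for *Gapdh*, just above the 0.884 to 0.957 of the others. Because a group has 2 mice, several values that involve WT at ZT16 are also given below without it. For the genes that were lowest on this array, leaving it out must raise the WT mean at ZT16, and leaving out mouse 1 must lower it. For these genes the values show how far a difference rests on 1 mouse and are no independent check.

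**Figure D2:**
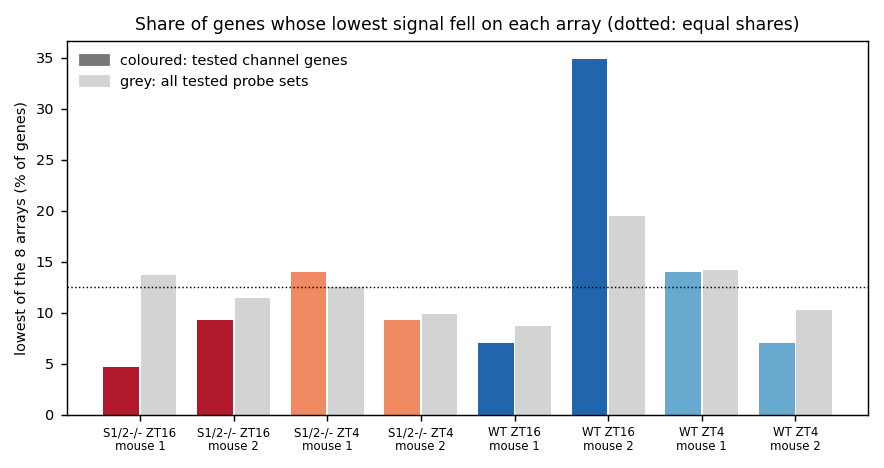
Percentage of tested genes whose lowest signal over the 8 arrays fell on each array, for the 43 channel genes (coloured bars) and for all 7453 tested probe sets (grey bars). Mouse 2 of WT ZT16 takes 34.9% of the channel genes and 19.5% of all probe sets.

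Among the voltage-gated potassium alpha subunits, 12 were tested and none had an unadjusted p under 0.05 in any of the 7 comparisons. *Kcna1* and *Kcna2*, the Kv1 subunits that sit along axons and limit repetitive firing, varied mostly within groups. *Kcna1* gave 976 and 935 in S1/2-/- and 1361 and 379 in WT mice at ZT16, and 2128 and 891 in S1/2-/- and 1693 and 913 in WT mice at ZT4. In both groups at ZT4 and in WT at ZT16, mouse 1 lay far above mouse 2, so that the groups overlapped. The S1/2-/- over WT difference of *Kcna1* at ZT16 was 0.41 (SE 0.55, adjusted p = 0.813) and turned to -0.51 without mouse 2 of WT ZT16.

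*Kcna2* showed the same low array. It gave 449 and 474 in S1/2-/- and 449 and 157 in WT mice at ZT16, and 431 and 510 in S1/2-/- and 411 and 320 in WT mice at ZT4. The difference at ZT16 of 0.79 (SE 0.39, adjusted p = 0.488) was 0.04 without that mouse, whose signal was the only one far from the rest. *Kcna6*, another Kv1 subunit, gave 173 and 114 in S1/2-/- and 121 and 52.6 in WT mice at ZT16, and its difference of 0.82 (SE 0.48, adjusted p = 0.551) was 0.22 without it.

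Kv3 and Kv4 subunits, which carry fast delayed rectifier and transient A-type currents, did not share a direction at ZT16. *Kcnc1* and *Kcnd3*, which had a wide spread, were lower in S1/2-/- than in WT mice. *Kcnd2* overlapped on 1 probe set and was higher in S1/2-/- on the other. *Kcnc1* (Kv3.1), a channel of fast-spiking interneurons, gave 57.5 and 146 in S1/2-/- and 190 and 175 in WT mice at ZT16, a ratio of 0.501 (SE 0.46 on the log2 scale, adjusted p = 0.467). The S1/2-/- signals lay below both WT signals, but most of the distance came from the mouse at 57.5. *Kcnd3* (Kv4.3) gave 72.7 and 61.6 in S1/2-/- and 228 and 98.8 in WT mice at ZT16, a difference of -1.16 (SE 0.59, adjusted p = 0.497) that was -1.77 (SE 0.67, adjusted p = 0.578) without mouse 2 of WT, and 76.8 and 252 in S1/2-/- and 181 and 250 in WT mice at ZT4. Its sister *Kcnd2* (Kv4.2) stayed within 805 to 1143 on all 8 arrays on the probe set with the higher signal. Its other probe set gave 420 and 396 in S1/2-/- and 257 and 320 in WT mice at ZT16, without overlap, a difference of 0.51 (SE 0.21, adjusted p = 0.4). *Kcnd3* also had the widest spread of the tested members, with an SD of 0.87 on the log2 scale over the 8 arrays.

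The 3 potassium beta subunits differed from each other. *Kcnab1*, *Kcnab2* and *Kcnab3* encode cytoplasmic Kvbeta proteins that bind Kv1 channels and speed their inactivation or carry them to the axon. *Kcnab1* gave 796 and 901 in S1/2-/- and 1162 and 903 in WT mice at ZT16, and 1346 and 1282 in S1/2-/- and 662 and 882 in WT mice at ZT4. In S1/2-/- mice both signals at ZT16 lay below both at ZT4, and in WT mice both lay above. The change from ZT4 to ZT16 was -0.63 in S1/2-/- (SE 0.18, adjusted p = 0.473) and 0.42 in WT (SE 0.18, adjusted p = 0.625), and the difference between these changes was -1.06 (SE 0.25, unadjusted p = 0.00175, adjusted p = 0.465). At ZT4 alone *Kcnab1* averaged 1314 ± 45.8 in S1/2-/- and 772 ± 156 in WT (SD, n = 2 each), a difference of 0.78 (SE 0.18, unadjusted p = 0.00128, adjusted p = 0.267, limma). Leaving out each array in turn, the difference of the changes stayed between -1.26 and -0.85.

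The other tested probe set of *Kcnab1* gave 145 and 143 in S1/2-/- and 137 and 155 in WT mice at ZT16, and 286 and 297 in S1/2-/- and 199 and 229 in WT mice at ZT4. There the signal was lower at ZT16 in both genotypes, with changes of -1.01 in S1/2-/- (SE 0.27, adjusted p = 0.458) and -0.55 in WT (SE 0.27, adjusted p = 0.650), so the probe sets of this gene differed in sign for WT. The striatal markers *Penk*, *Tac1* and *Drd2* were lowest in WT at ZT4, where the group mean of the first *Kcnab1* probe set was lowest too. The part of striatal tissue in its signal was not tested.

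The promoter windows of *Kcnab1* and *Clcn4* are shown because these genes had low unadjusted p-values for the change with time and each has an E-box of the palindromic form CACGTG, which reads the same on both strands. They are RefSeq promoter sequence of GRCm38.p6, 5′ to 3′ on the strand of the gene and cut to bases before the start site, with the E-box in capitals: *Kcnab1* has one at -162 in chr3:65108805-65108904 and another at -45 from a second start in chr3:65188011-65188102, both on the plus strand, and *Clcn4* has one at -153 in chr7:7299658-7299757 on the minus strand.
Kcnab1, first start: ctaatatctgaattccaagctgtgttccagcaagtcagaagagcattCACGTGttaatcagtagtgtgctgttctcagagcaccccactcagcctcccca
Kcnab1, second start: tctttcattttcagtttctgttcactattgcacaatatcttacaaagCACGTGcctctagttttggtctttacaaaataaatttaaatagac
Clcn4: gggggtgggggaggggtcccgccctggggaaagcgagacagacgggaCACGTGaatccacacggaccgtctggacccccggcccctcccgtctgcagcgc

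The share of channel genes with this motif was near that of all genes. Within 300 bases around the start (250 of them before it), it occurred in 5 of 53 channel genes with a promoter entry (9.43%), against 8.09% of 27025 genes. Among the tested channel genes it occurred in 3 of 35, the third being *Clcn7*, an exchanger of lysosomes, whose signals overlapped between all groups (708 to 1058). A match says only that these letters are present.

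*Kcnab3* and *Kcnab2* did not follow *Kcnab1*. *Kcnab3* gave 486 and 661 in S1/2-/- and 457 and 450 in WT mice at ZT16, and 565 and 655 in S1/2-/- and 775 and 659 in WT mice at ZT4. In WT both ZT16 signals lay below both ZT4 signals, a change of -0.66 (SE 0.19, adjusted p = 0.539) that was -0.64 without mouse 2 of ZT16, while the S1/2-/- groups overlapped with a change of -0.10 (SE 0.19, adjusted p = 0.935). The difference between the genotypes in this change was 0.55 (SE 0.27, adjusted p = 0.875). *Kcnab2* gave 2734 and 1626 in S1/2-/- and 2465 and 2852 in WT mice at ZT16, and 3220 and 2215 in S1/2-/- and 3976 and 3288 in WT mice at ZT4. It was the 1 channel gene with an unadjusted p under 0.05 in the lower direction for S1/2-/- against WT over both times, at -0.38 (SE 0.17, adjusted p = 0.393).

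**Figure D3:**
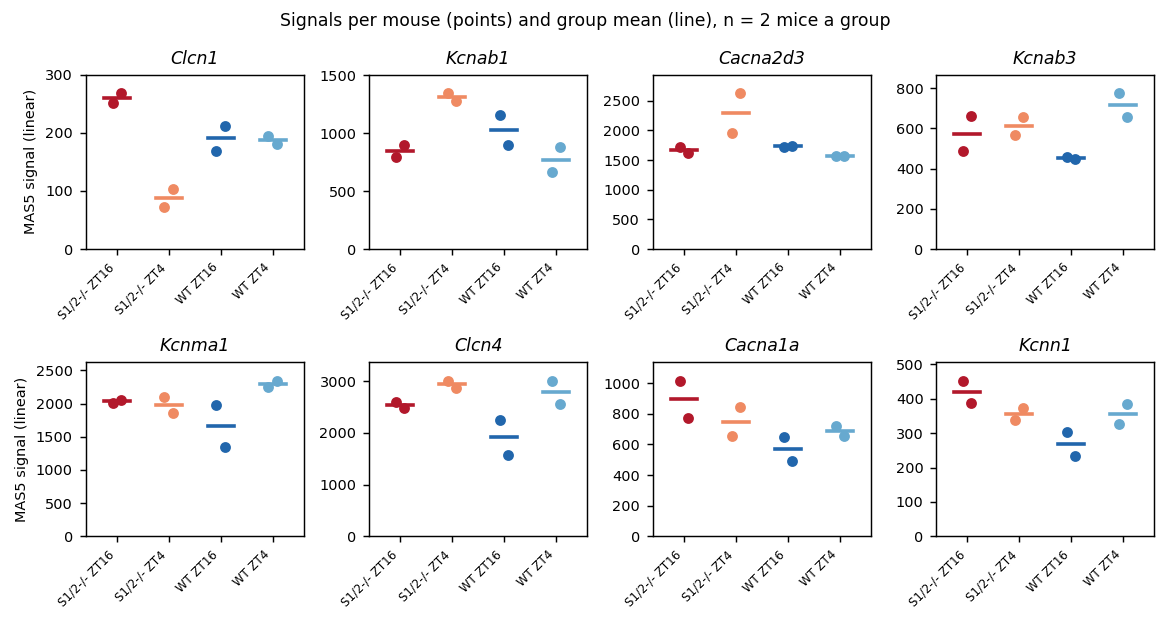
MAS5 signal (linear axis from 0) of 8 channel genes in each mouse (points) with the group mean (line), for S1/2-/- ZT16, S1/2-/- ZT4, WT ZT16 and WT ZT4, 2 mice each. *Clcn1* is lowest in both S1/2-/- mice at ZT4 (71.5 and 103), *Kcnab1* is highest in the same mice (1346 and 1282), and *Kcnma1*, *Clcn4*, *Cacna1a* and *Kcnn1* are lowest in mouse 2 of WT ZT16.

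The calcium-activated potassium channels were the BK channel *Kcnma1*, which ends action potentials and sets firing rate in the circadian clock, and *Kcnn1* (SK1), from the SK family, whose channels carry afterhyperpolarization current. *Kcnma1* gave 2006 and 2059 in S1/2-/- and 1979 and 1350 in WT mice at ZT16, and 2106 and 1864 in S1/2-/- and 2249 and 2348 in WT mice at ZT4. The WT change from ZT4 to ZT16 was -0.49 (SE 0.16, adjusted p = 0.625). The S1/2-/- change was 0.04, and the difference of S1/2-/- minus WT was 0.53 (SE 0.23, adjusted p = 0.868). Without mouse 2 of WT ZT16 the WT change was -0.22 (SE 0.12, adjusted p = 0.954) and the difference of the changes 0.25 (SE 0.16, adjusted p = 0.957). *Kcnn1* gave 453 and 387 in S1/2-/- and 303 and 234 in WT mice at ZT16, so that both S1/2-/- signals were the higher ones, and 338 and 374 in S1/2-/- and 328 and 384 in WT mice at ZT4, where the genotypes overlapped. Its difference at ZT16 was 0.65 (SE 0.21, adjusted p = 0.365), and 0.46 without mouse 2 of WT.

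Inward rectifiers, which hold the resting potential, and two-pore channels, which carry background leak current, held 1 gene with an unadjusted p under 0.05, *Kcnk2* at ZT4. *Kcnj9* (GIRK3), a channel opened by G proteins, gave 862 and 673 in S1/2-/- and 648 and 460 in WT mice at ZT16, a difference of 0.48 (SE 0.22, adjusted p = 0.466) that was 0.23 without mouse 2 of WT. On its other probe set the ZT16 signals were 393 and 337 in S1/2-/- and 334 and 320 in WT mice. At ZT4 that probe set gave 678 and 428 in S1/2-/- and 352 and 391 in WT mice. *Kcnj4*, *Kcnj11*, which forms ATP-sensitive channels, and *Kcnj3* (GIRK1) differed by 0.18 to 0.33 at ZT16, so that all 4 tested inward rectifiers were on the higher side in S1/2-/-, but *Kcnj11* turned to -0.06 without mouse 2 of WT. *Kcnk2* (TREK1), a leak channel gated by stretch and lipids, gave 2082 and 2039 in S1/2-/- and 2109 and 2027 in WT mice at ZT16, and 2156 and 2675 in S1/2-/- and 1683 and 2053 in WT mice at ZT4, where both S1/2-/- signals exceeded both WT signals by a log2 difference of 0.37 (SE 0.14, adjusted p = 0.585). *Kcnk1* stayed between 2760 and 3774 on all arrays. *Kcnk7* gave 227 and 192 in S1/2-/- mice at ZT16 and 132 and 112 at ZT4, a change of 0.78 (SE 0.37, adjusted p = 0.681), while the WT groups overlapped, with 133 and 164 at ZT16 and 130 and 240 at ZT4.

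Calcium channel genes were tested for 4 alpha1 pores, 2 alpha2delta subunits, 1 beta and 1 gamma subunit. *Cacna1a*, the P/Q-type pore that triggers transmitter release, gave 1017 and 771 in S1/2-/- and 647 and 493 in WT mice at ZT16, and 653 and 842 in S1/2-/- and 722 and 652 in WT mice at ZT4. Both S1/2-/- mice were above both WT mice at ZT16, by 0.65 (SE 0.20, unadjusted p = 0.00928, adjusted p = 0.345), and 0.45 (SE 0.22, adjusted p = 0.719) without mouse 2 of WT ZT16. At ZT4 the genotypes overlapped (0.11). The N-type pore *Cacna1b* differed by 0.21 at ZT16 and by -0.29 at ZT4, the L-type pore *Cacna1c* by 0.03 and -0.08, and the T-type pore *Cacna1g*, which drives burst firing in sleep, by -0.13 and -0.03. All 4 alpha1 genes had a positive ZT16 over ZT4 change in S1/2-/- mice, of 0.15 to 0.26, none with an unadjusted p under 0.05.

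Alpha2delta subunits bring the pore to the membrane and to the synapse. *Cacna2d3* gave 1728 and 1623 in S1/2-/- and 1717 and 1744 in WT mice at ZT16, and 1949 and 2626 in S1/2-/- and 1570 and 1572 in WT mice at ZT4. The ZT16 signals of the genotypes nearly coincided, while at ZT4 both S1/2-/- signals lay above all other arrays, with a difference of 0.53 from WT (SE 0.14, unadjusted p = 0.00372, adjusted p = 0.359). The change from ZT4 to ZT16 was -0.43 in S1/2-/- (SE 0.14, adjusted p = 0.539) and 0.14 in WT, a difference of -0.57 (SE 0.20, adjusted p = 0.784). The S1/2-/- change ranged from -0.65 to -0.22 when single arrays were left out.

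*Cacna2d1* had log2 changes of similar size in both genotypes. It gave 739 and 604 in S1/2-/- mice at ZT16 and 1302 and 1014 at ZT4, a change of -0.78 (SE 0.36, adjusted p = 0.676), and 861 and 342 in WT mice at ZT16 and 1067 and 777 at ZT4, a change of -0.75 (SE 0.36, adjusted p = 0.641). The S1/2-/- groups did not overlap and the WT groups did. Averaged over genotypes the change was -0.76 (SE 0.25, unadjusted p = 0.0124, adjusted p = 0.407), and the WT change was -0.08 without mouse 2 of ZT16. The beta subunit *Cacnb2* (413 to 577) and *Cacng2*, stargazin, which also traffics AMPA receptors (1431 to 1808), stayed within narrow ranges over all arrays.

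**Figure D4:**
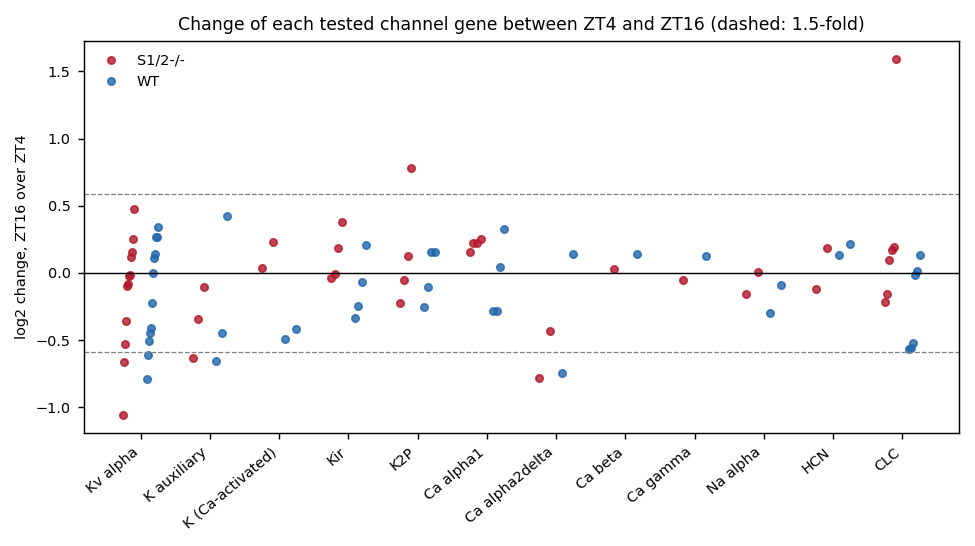
Log2 change of each tested channel gene for ZT16 over ZT4 in S1/2-/- mice (red, left in each class) and WT mice (blue, right), by subunit class, with dashed lines at 1.5-fold. Most points lie between the dashed lines; *Clcn1* at 1.60 in S1/2-/- is the highest, and no point passed the adjusted test.

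Sodium channel genes were tested for *Scn1a* (Nav1.1), the main pore of fast-spiking interneurons, and *Scn8a* (Nav1.6), the pore of the axon initial segment. *Scn1a* gave 2176 and 1794 in S1/2-/- and 2781 and 1708 in WT mice at ZT16, and 2489 and 1949 in S1/2-/- and 2714 and 1993 in WT mice at ZT4. All 4 groups overlapped, with mouse 1 above mouse 2 in each, and the genotype differences were -0.14 at ZT16 (SE 0.23) and -0.08 at ZT4. Without mouse 2 of WT the difference at ZT16 was -0.49 (SE 0.21, unadjusted p = 0.0415, adjusted p = 0.646). The other tested probe set of *Scn1a* gave 1394 and 1262 in S1/2-/- and 1141 and 854 in WT mice at ZT4, without overlap and in the opposite direction, a difference of 0.43 (SE 0.26, adjusted p = 0.777), and 0.13 at ZT16. *Scn8a* gave 1002 and 944 in S1/2-/- and 907 and 731 in WT mice at ZT16, a difference of 0.26 (SE 0.17, adjusted p = 0.588) that was 0.10 without mouse 2 of WT. The other probe set of *Scn8a* stood 7.61 lower on the log2 scale, so only 1 of the 2 reported the transcript above the filter.

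HCN channels carry the inward current that opens on hyperpolarization and paces rhythmic firing. *Hcn2* gave 1327 and 1363 in S1/2-/- and 1339 and 1210 in WT mice at ZT16, and 1436 and 1483 in S1/2-/- and 1022 and 1318 in WT mice at ZT4. At ZT4 both S1/2-/- signals lay above both WT signals, by 0.33 (SE 0.14, unadjusted p = 0.0405, adjusted p = 0.651), and at ZT16 the genotypes overlapped. On the other probe set of *Hcn2* the ZT16 signals did not overlap, with 1159 and 1294 in S1/2-/- and 1023 and 874 in WT. *Hcn3* differed by 0.15 at ZT16 and 0.18 at ZT4.

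The CLC family held the largest fold among the tested members. *Clcn1*, the chloride channel known from skeletal muscle, gave 251 and 268 in S1/2-/- and 169 and 212 in WT mice at ZT16, and 71.5 and 103 in S1/2-/- and 195 and 180 in WT mice at ZT4. The S1/2-/- mice were thus the highest of the 8 arrays at ZT16 and the lowest at ZT4, while the WT times overlapped. The ZT16 over ZT4 change was 3.02-fold in S1/2-/- (log2 1.60, SE 0.32, unadjusted p = 0.000532, adjusted p = 0.402) and 0.01 on the log2 scale in WT, and the difference between the changes was 1.58 (SE 0.45, adjusted p = 0.634). The second *Clcn1* probe set did not repeat this: it lay below the filter, with 19.4 and 13.2 in S1/2-/- and 46.3 and 59 in WT mice at ZT16, and 15.4 and 14.1 in S1/2-/- and 16.1 and 8.95 in WT mice at ZT4, so that its difference of the changes was -2.00 (SE 0.97).

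*Clcn4*, an endosomal chloride/proton exchanger, gave 2588 and 2482 in S1/2-/- and 2258 and 1568 in WT mice at ZT16, and 3012 and 2864 in S1/2-/- and 3004 and 2560 in WT mice at ZT4. In both genotypes the ZT16 signals lay below the ZT4 signals with no overlap, with changes of -0.21 in S1/2-/- and -0.56 in WT (SE 0.16, unadjusted p = 0.00562, adjusted p = 0.539), and the WT change was -0.30 (SE 0.12) without mouse 2 of ZT16. Over both genotypes the change was -0.39 (SE 0.11, adjusted p = 0.383). Its second probe set changed by 0.07 in S1/2-/- and -0.04 in WT, so that the probe sets differed. *Clcn3*, the vesicular exchanger, was measured by 4 probe sets: the first changed by -0.16 in S1/2-/- and -0.02 in WT from ZT4 to ZT16, and the one with the lowest signal by -0.76 (SE 0.33, adjusted p = 0.653) and -0.85 (SE 0.33, adjusted p = 0.625). That last one gave 315 and 289 in S1/2-/- and 387 and 168 in WT mice at ZT16, and 530 and 496 in S1/2-/- and 497 and 425 in WT mice at ZT4, with no overlap of the times in either genotype, and the 168 came from mouse 2 of WT. Another probe set was also lower at ZT16 without overlap in both genotypes. It gave 508 and 539 in S1/2-/- and 550 and 261 in WT at ZT16, and 787 and 598 in S1/2-/- and 737 and 667 in WT at ZT4. On the remaining probe set of *Clcn3* the times overlapped in both genotypes. *Clcn5* gave 66 and 141 in S1/2-/- and 185 and 224 in WT mice at ZT4, a difference of -1.07 (SE 0.49, adjusted p = 0.686), and 85.3 and 138 in S1/2-/- and 189 and 106 in WT mice at ZT16.

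Without mouse 2 of WT ZT16, again no channel gene was called in any comparison, the median WT change with time was 0.02, and the median difference between the genotypes in that change was -0.07, against 0.11 with it. Left as the only WT mouse at ZT16, under the assumption that it varied like the other groups, it gave 3 called genes for the WT change with time (*Cacna2d1*, *Clcn4* and *Kcnma1*, all lower at ZT16) and 3 for S1/2-/- against WT at ZT16 (*Clcn4*, *Kcna2* and *Kcnma1*, each higher in S1/2-/-). In that fit 1.34% and 2.07% of all probe sets were called in these comparisons. It also gave *Cacna2d1* for the mean change with time (0.47% of all probe sets) and *Kcna2* for the mean genotype difference (1.18%).

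The 25 genes below the filter are listed here only by range. They included the sodium pores *Scn3a* (3.46 to 9.67), *Scn7a* (8.96 to 48.4), which is known from glia and nerve sheath, *Scn9a* and *Scn10a*, known from sensory neurons, the T-type pore *Cacna1h* (13 to 54.1) and the mural cell channel *Kcnj8* (15.1 to 117). In some of these genes the mice of a group lay far apart, as in *Kcnk3*, with 88.3 and 7.44 in WT at ZT16. In the fit without a filter, where all 68 genes were tested, none was called either.

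Genes whose proteins work beside the channels gave no call either. Of 32 partner genes listed, 20 were measured and 18 tested, among them the anchoring proteins *Ank3* and *Dlg4*, the kinase *Camk2a*, sodium pump subunits and chloride transporters, and 0 of 18 were called in any comparison. Their median log2 change was 0.15 for S1/2-/- against WT at ZT16 and -0.12 for ZT16 against ZT4 in WT, close to the channel medians of 0.15 and -0.09. *Slc12a5* (KCC2), which keeps neuronal chloride low, gave 205 and 199 in S1/2-/- and 174 and 80 in WT mice at ZT16, with the low value on the same array, and *Atp2b2*, a calcium pump, gave 1840 and 1342 in S1/2-/- and 1383 and 760 in WT mice. Of 22 channel genes listed for links to clock or sleep, 13 were measured and 11 tested. At most 1 of these 11 had an unadjusted p under 0.05 in any comparison, and the lowest adjusted p was 0.323, for the genotype difference over both times, where *Cacna1a* had 0.38 (SE 0.14).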

How the data were processed

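The deposited table holds 1 MAS5 signal per probe set and array, an intensity on a linear scale, condensed by the authors; per the labels 1 mouse was hybridised per array. MAS5 is named in the submitters' processing notes, with its version not given in the sources used here. Each of the 8 columns was matched to a mouse by the sample title. The deposited intensity values have a trimmed mean of 500 per array, so they were not scaled again. After removal of 66 control probe sets, values under a floor of 1 were raised to it and converted to log2. Those with a mean of 6.79 or more (the 40th percentile of log2 signal, 7453 of 12422 probe sets) were fitted in limma 3.58.1 (R 4.3.3) as 4 group means over 8 arrays, with an intensity trend, 4 residual and 6.02 prior degrees of freedom. A call needed a fold over 1.5 and a Benjamini-Hochberg adjusted p under 0.05 over all 7453 probe sets. All differences are on the log2 scale unless called signals or folds, SE is the standard error of the fit, and p-values measure the spread between single mice. The number of arrays limits the precision. Gene names come from the array's annotation. Python 3.11.15 made the summaries, and the fit was tested on simulated data.

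The members and lists were chosen with earlier results of these data known. The text names members by a fixed rule: the 5 lowest p-values of each comparison, the 2 highest mean signals of each class, channels linked to clock or sleep or to other cell types, and genes whose probe sets lie far apart; others were named after their values were seen. Taken over all probe sets above the filter, same-numbered mice of different groups hardly deviated together (correlations of -0.0014 to 0.098), so the numbers were not taken as pairs. In some single genes the same-numbered mouse was the higher one in every group, as in *Scn1a*, *Cacna2d1*, *Clcn4*, *Penk*, *Tac1* and *Drd2*. In others, such as *Kcnma1*, it was not. Alternatives were no filter, a 60th percentile filter, median centring, quantile normalization, a fit without intensity trend, a pseudocount of 16, only the 4 arrays of a comparison, ANOVA, a replicate block, every probe set of a gene, and each array left out in turn.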

Additional observations from a re-analysis of the deposited data

How the results depend on the processing

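No channel gene was called in any of the 7 comparisons under the filters, scalings, pseudocount, variance prior, 4-array fit, ANOVA and every-probe-set settings. The changes of the 5 genes with the lowest p in each comparison kept their sign in every setting on the probe set chosen for each gene; on other probe sets the WT change of *Kcnab1* was -0.55 against 0.42, and the difference of the changes of *Clcn1* -2.00 (below the filter), against 1.58. With single arrays left out, 0 to 3 genes were called for ZT16 against ZT4 in WT, 0 to 3 for S1/2-/- against WT at ZT16, 0 to 1 for the mean change with time and 0 to 1 for the mean genotype difference, and 0 in the other comparisons. Every call arose without WT ZT16 replicate 1, when mouse 2 stood alone for its group. The fit with the replicate number as a block called 0 genes, as did the fit without it. At an unadjusted p under 0.05 the block gave 7 genes for ZT16 against ZT4 in WT, against 4 without it. Every pair of groups correlated below 0.1, but this is taken over all probe sets above the filter and cannot decide the matter for single genes. Whether the numbers mark a shared batch was not tested.

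Counts at an unadjusted p under 0.05 moved by over 1.5 times in several settings. For ZT16 against ZT4 in S1/2-/- the 3 genes became 5 without a filter, 6 in the 4-array fit and 5 over every probe set. For S1/2-/- against WT at ZT16 the 3 became 5 after median centring and 5 over every probe set. ANOVA gave 1 gene for the WT change with time, 1 at ZT16, 3 at ZT4, 2 for the difference of the changes, 1 for the mean change with time and 0 for the mean genotype difference. The mean genotype difference gave 2 genes in place of 4 without the intensity trend, and the mean change with time 8 in place of 5 over every probe set. With single arrays left out, these counts ran from 2 to 11 for the WT change with time, 2 to 12 for S1/2-/- against WT at ZT16, 1 to 14 for the mean genotype difference, 2 to 8 for the mean change with time, 4 to 8 for the difference of the changes, 3 to 5 for the change in S1/2-/- and 5 to 6 at ZT4. The 11, 12 and 14 arose without WT ZT16 replicate 1. The causes were not tested.

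The number of mice and low signals limit what can be seen, and 25 of 68 genes lay below the filter. For *Clcn1*, *Clcn4*, *Clcn3*, *Kcnab1*, *Kcnd2*, *Scn1a*, *Hcn2* and *Kcnj9* other probe sets of the gene gave different changes.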
